A study of Zea mays with 109 samples.

Results

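Of 61936 circular RNAs (circRNAs) measured in maize, 661 were present in the young ear and tassel and had no read in any leaf library. Members were selected on the measured circRNA values, as those above 0 in at least 4 of 6 inflorescence libraries and at 0 in all 11 leaf libraries, which makes them 1.07% of the table. Their inflorescence and leaf values are therefore a description and carry no test, and the members are followed here into the shoot apical meristem (SAM), stem, root and kernel, which the rule did not use. A circRNA forms when the splicing machinery joins the end of an exon back to the start of the same or an earlier exon, a reaction called back-splicing, which leaves a closed ring without free ends. Such rings resist enzymes that degrade RNA from its ends, and they are recognised by reads that cross the back-splice junction. The SAM is the stem cell tissue at the shoot tip that makes leaves and internodes and then converts into the tassel, the male inflorescence, while the ear, the female inflorescence, grows from an axillary meristem.

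The study mapped several molecular layers across tissues of the inbred line B73, grown untreated in a greenhouse at 25 °C with 12 h of light and 12 h of dark. For each tissue, RNA of 3 replicates of 5 to 10 plants each was mixed in equal amounts, so every tissue or stage gave 1 circRNA library and 26 libraries were measured. The inflorescence libraries were ears of 1 cm, 2 mm and 5 mm, tassels of 1 cm and 2 mm and a library labelled Inflorescence. Outside inflorescence and leaf there were SAM at stages V1, V3 and V4, an internode and a stem at V6, primary roots at 6DAS and V1, and embryo and endosperm at R2. Libraries of one organ are different stages or parts and not repeated samples, so errors and p-values measure the spread between such tissues. The tissue labels were taken as given, because no marker gene could be looked up among these circRNAs.

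The values are a signal that the authors scaled for each library, and each value came back as a whole number of reads. Recovered circRNA reads ranged from 41661 in the 2mm Ear to 107480 in the 1cm Tassel among the inflorescence libraries, and from 17289 to 38740 in leaf. SAM libraries held 29324 to 64394 reads, stem libraries 55765 and 59236, root libraries 43082 and 43594, embryo 21556 and endosperm 46157. Leaf, which the rule requires to be at 0, thus had fewer circRNA reads per library than inflorescence. Its 11 libraries held 283103 reads and the 6 of inflorescence 461047. Depth below means recovered circRNA reads and not all reads sequenced. A count of 0 in all leaf reads allows up to 10.6 RPM (reads per 1000000 circRNA reads, the limit being 3 reads of the leaf total). The rule chose members on both quantities, so a member's inflorescence rate above this limit is a description and no check of its absence from leaf. For the 14 members with 4 inflorescence reads the rate did not exceed the limit.

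Most members were sparse. A member had a median of 14 reads summed over the 6 inflorescence libraries, from 4 to 669. There were 214 members with fewer than 10 such reads, 327 with 10 to 29 and 120 with at least 30, of which 10 reached 100. Presence in 4 libraries held for 378 members, in 5 for 166 and in all 6 for 117. The 10 most abundant members supplied 13.7% of the 13991 member reads in inflorescence.

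At the threshold on inflorescence, ZmCirc033359 was just inside with 5 reads in the 1cm Ear, 4 in the 5mm Ear, 23 in the 1cm Tassel and 31 in the Inflorescence library. ZmCirc061269 was just inside with 10, 11, 9 and 12 reads in the same libraries, and both were at 0 in the 2mm Ear and the 2mm Tassel. Just outside, 876 circRNAs without leaf reads were present in 3 inflorescence libraries, such as ZmCirc031122 with 11 reads in the 5mm Ear, 19 in the 1cm Tassel and 2 in the 2mm Tassel. ZmCirc031629 had 8, 15 and 7 reads in its 3 libraries. At the threshold on leaf, 510 circRNAs met the inflorescence condition and were seen in 1 leaf library, 286 of them by 1 read. ZmCirc013730, with 15 to 52 reads in each inflorescence library, was kept out by 1 read in the Husk leaf. ZmCirc054117, with 10 to 71 reads in each, was kept out by 2 reads in Topmost Leaf-L(V3).

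The most abundant member by far was ZmCirc020983. It had 135, 113 and 157 reads in the 1cm, 2mm and 5mm ears, 71 and 89 in the 1cm and 2mm tassels and 104 in the Inflorescence library. Its mean signal was 5714 ± 1089 (SD, n = 3) in ear and 2902 ± 78.9 (SD, n = 2) in tassel, and every ear was above both tassels. Its pooled inflorescence rate was 137 times the leaf limit. Outside inflorescence it had 32 and 26 root reads in the 6DAS and V1 roots, 5, 3 and 9 reads in SAM at V3, V1 and V4, 6 in the internode, 4 in the stem, and none in embryo or endosperm. Both roots, at 925 ± 288 signal (SD, n = 2), were above all SAM and stem libraries, which averaged 202 ± 69.3 (SD, n = 3) and 202 ± 23.2 (SD, n = 2). Neither difference passed in limma: SAM minus the mean of root and stem was -1.05 on the log2 scale (SE 0.543, adjusted p = 0.377), and root minus stem was 2.02 (SE 0.711, adjusted p = 0.131). The latter was called higher in root by edgeR on the recovered reads (log2 difference 2.61, adjusted p = 0.00588), and by limma on RPM (adjusted p = 0.0292), with quantile normalization (adjusted p = 0.0225) and without SAM(V1) (adjusted p = 0.0413). The root minus stem difference was not called by DESeq2, in the limma fit of all 15 non-leaf libraries, or without any one root or stem library. Nor was it called with the pseudocount divided or multiplied by 4, with either other filter, or without SAM (V3) or SAM(V4).

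ZmCirc015606 was the next by mean inflorescence signal, at 1387 ± 383 (SD, n = 6). It had 35, 37 and 42 reads in the 1cm, 2mm and 5mm ears, 34 and 21 in the 1cm and 2mm tassels and 40 in the Inflorescence library. In SAM it had 15, 11 and 25 reads at V3, V1 and V4, in the internode and stem 10 and 4, and in the roots 2 and 3. SAM lay above stem and root in signal without overlap, and the kernel libraries were at 0. The SAM difference did not pass (log2 difference 1.87, SE 0.558, limma adjusted p = 0.0932).

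ZmCirc018636 varied far more among inflorescences. It had 32, 2 and 20 reads in the 1cm, 2mm and 5mm ears, 54 and 0 in the 1cm and 2mm tassels and 53 in the Inflorescence library. Its SAM reads were 33, 21 and 30 at V3, V1 and V4, against 11 and 19 in internode and stem, 4 and 21 in the 6DAS and V1 roots, 0 in embryo and 8 in endosperm. The 2 lowest inflorescence values were those of the 2 mm organs, and the member had the highest mean of all members in SAM (1048 ± 157 signal, SD, n = 3) and in stem (642 ± 341, SD, n = 2).

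ZmCirc030403 had 11, 30 and 23 reads in the 1cm, 2mm and 5mm ears, 18 and 54 in the 1cm and 2mm tassels and none in the Inflorescence library. It had 14 reads in SAM(V1), 39 in SAM(V4) and 0 in SAM (V3), and it was at 0 in stem, root and kernel. The member was thus seen outside inflorescence in SAM alone, and in 2 of its 3 stages.

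ZmCirc018176 and ZmCirc008118 were at 0 in both roots and in embryo. ZmCirc018176 had 37, 22 and 28 reads in the 1cm, 2mm and 5mm ears, 15 and 34 in the tassels, 27 in the Inflorescence library, 17, 5 and 11 in SAM at V3, V1 and V4, 6 in the stem, 0 in the internode and 5 in endosperm. ZmCirc008118 had 28, 16 and 29 ear reads, 10 and 8 tassel reads, 34 in the Inflorescence library, 8, 6 and 6 in SAM, 0 and 1 in internode and stem, and 11 in endosperm. For ZmCirc008118 every SAM library was above every stem and root library in signal, while for ZmCirc018176 the stem lay within the SAM values. Neither SAM difference passed (limma adjusted p = 0.0553 for ZmCirc018176 and 0.0671 for ZmCirc008118). ZmCirc061265, with 14 to 27 reads in each inflorescence library, had 18, 17 and 13 reads in SAM, 6 and 3 in internode and stem, 0 and 5 in the roots and none in the kernel (log2 difference 2.42, SE 0.639, limma adjusted p = 0.052).

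**Figure D1:**
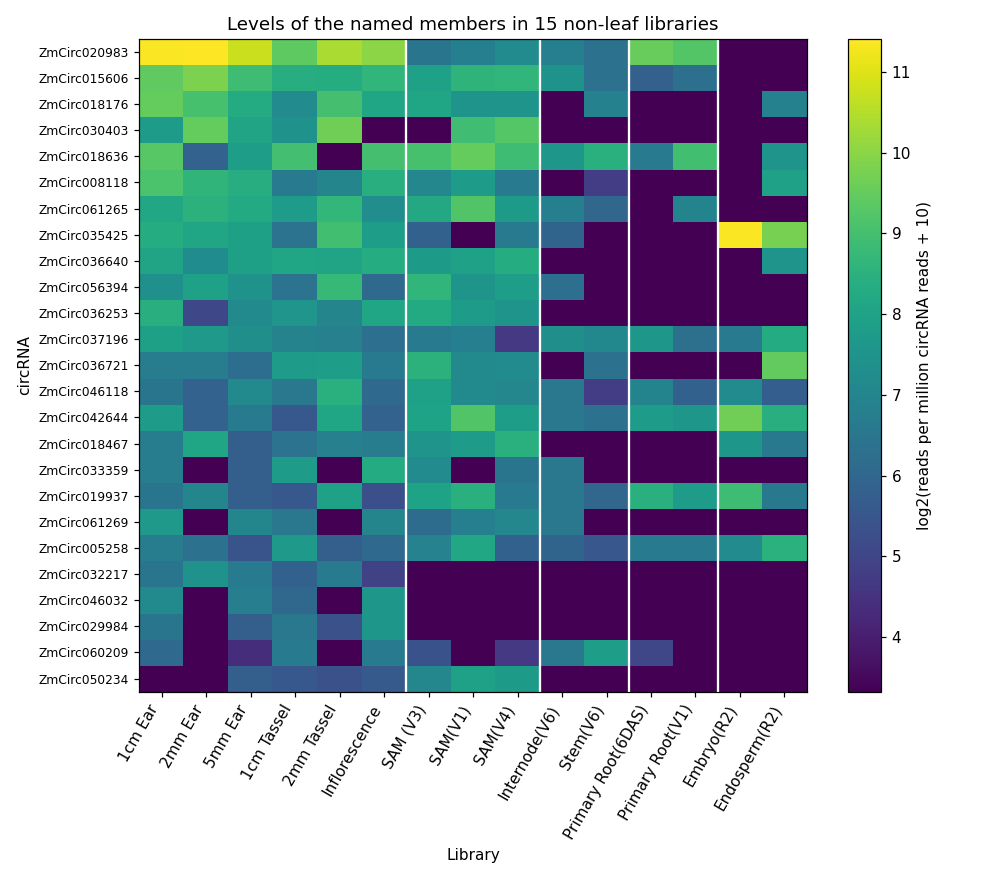
Levels of the 25 named members (one per line of the heatmap, ordered by inflorescence level) in the 15 non-leaf libraries (columns, parted by white lines into inflorescence, SAM, stem, root and kernel), as log2 of RPM plus 10. The darkest colour is 0 reads; ZmCirc020983 stays brightest through the inflorescence columns, and ZmCirc035425 is brightest in Embryo(R2).

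Among inflorescence libraries, the number of members detected was 501 in the 1cm Ear, 307 in the 2mm Ear, 580 in the 5mm Ear, 571 in the 1cm Tassel, 516 in the 2mm Tassel and 569 in the Inflorescence library. The 2mm Ear, which also had the fewest reads, was the low one. Members supplied 3.89%, 3.24% and 3.22% of circRNA reads in the 1cm, 2mm and 5mm ears, 2.41% and 3.52% in the 1cm and 2mm tassels and 2.70% in the Inflorescence library, so the 2mm Ear was not low in share. Of the 166 members missing from a single inflorescence library, 86 were missing from the 2mm Ear. Of the 378 missing from a pair, 76 lacked the 2mm Ear and the 2mm Tassel and 73 lacked the 1cm and 2mm ears. There were 191 members in all 3 ears, 433 in both tassels and 7 in neither tassel.

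All 661 members were tested between ears and tassels, since the rule itself lets them pass the filter of 3 of 5 libraries. The same values entered the rule, so the comparison is given beside its background and nothing is read from it. No member was called by limma at an adjusted p under 0.05 and a log2 fold change of at least 1, where 0.0199% of the 5034 circRNAs tested were called higher in ear and 0% higher in tassel. At an unadjusted limma p under 0.05 there were 11 members (1.66%), against 2.46% of all tested. On the recovered reads edgeR and DESeq2 called 0 members each, where edgeR called 6 of all tested and DESeq2 none. Every ear was above every tassel for 39 members (5.90%, background 3.81%), and every tassel above every ear for 52 (7.87%, background 9.89%).

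Outside inflorescence, members were found most often in SAM. At least 1 SAM library held 525 members (79.4%), at least 1 stem library 364 (55.1%), at least 1 root library 290 (43.9%) and embryo or endosperm 300 (45.4%). These groups have 3, 2, 2 and 2 libraries of unequal depth, so the shares are not on an equal footing. SAM was also highest, at 94.7%, among the 3676 circRNAs that met the inflorescence condition and had leaf reads. In that set 85.5% were found in stem, 82.8% in root and 78.9% in the kernel. In single libraries, members detected numbered 385, 244 and 403 in SAM at V3, V1 and V4, 253 in the internode, 241 in the stem, 205 and 172 in the 6DAS and V1 roots, 54 in embryo and 285 in endosperm. Expected members at an equal depth of 17289 reads were 205 to 241 in SAM, 130 to 140 in stem, 107 to 132 in root, 50.3 in embryo and 199.8 in endosperm, against 229 to 322 in the inflorescence libraries. At this depth all SAM libraries were above all stem and root libraries, and endosperm lay between them. The 2mm Ear, at 229, was the lowest inflorescence library at this depth.

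The share of circRNA reads from members gave a similar order. The SAM libraries averaged 2.64% ± 0.212 (SD, n = 3). Stem averaged 1.15% ± 0.0839 (SD, n = 2) and root 1.18% ± 0.227 (SD, n = 2), while the inflorescence mean of 3.16% ± 0.538 (SD, n = 6) was shaped by the rule. All 3 SAM libraries, at 2.48%, 2.88% and 2.56%, were above the stem and root libraries, none of which exceeded 1.34%. Stem and root overlapped. Endosperm had a share of 2.39% (95% exact binomial interval 2.25 to 2.53, counting error only) and embryo 1.19% (1.05 to 1.34). In pieces of tissue like these, fewer cells of a type and less RNA per cell cannot be told apart.

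**Figure D2:**
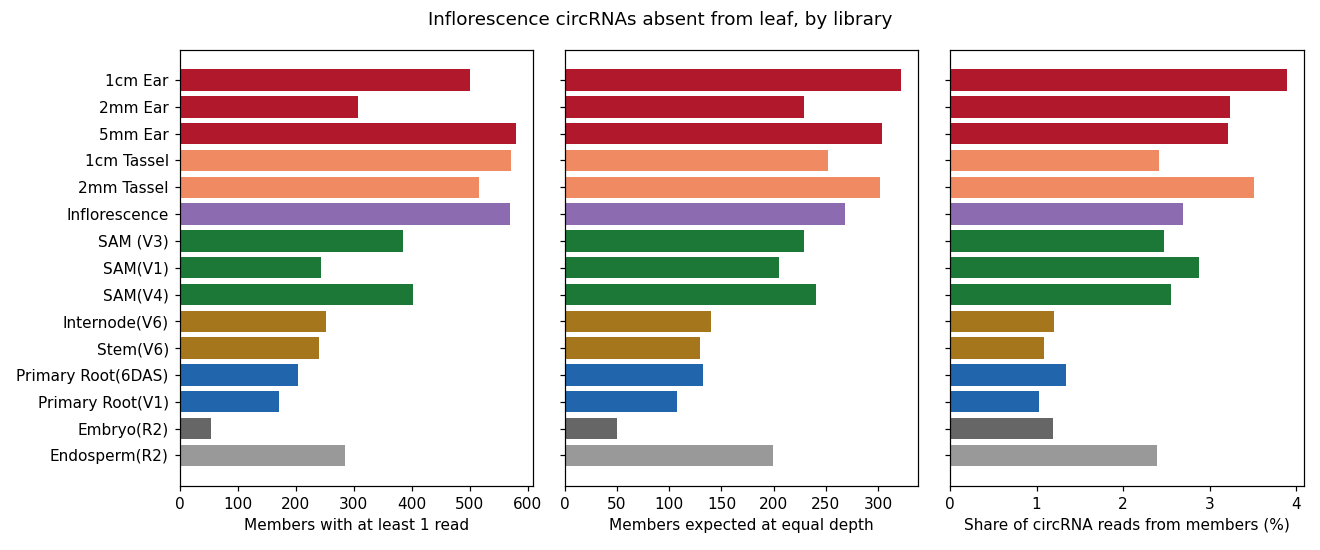
Members with at least 1 read (left), members expected at an equal depth of 17289 reads (middle) and the percentage of circRNA reads from members (right), 1 bar per library, coloured by organ. In the middle and right panels the 3 SAM bars, at 205 to 241 members and 2.48% to 2.88%, exceed the stem and root bars.

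Members overlapped in many combinations of organs. SAM, stem, root and kernel all held 107 members, SAM alone held 82, SAM and stem 78, SAM, stem and kernel 66, SAM, stem and root 59, and SAM and kernel 55. Stem alone held 27 members, root alone 21 and kernel alone 6, and 47 members (7.11%) were in none of the 9 outside libraries. Detection within an organ was often in one library: 149 members were in all 3 SAM libraries, 130 in both stem libraries and 87 in both roots. In the kernel, 246 members were in endosperm only, 15 in embryo only and 39 in both, with the embryo library less deep than the endosperm library.

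The comparison set was the 3676 circRNAs that met the inflorescence condition and also had leaf reads. These were seen in a median of 7 of the 9 outside libraries, against 3 for members, but they were also more abundant, with a median of 29 inflorescence reads. Within bands of inflorescence reads, members were detected less often in each organ group and each band. The bands are ranges and the highest has no upper limit, so abundance is not fully matched within them. For 40 or more inflorescence reads, 95.8% of 72 members were found in SAM against 99.9% of 1433 circRNAs seen in leaf, 76.4% against 98.7% in stem and 54.2% against 94.98% in root. In the same band, 59.7% against 94.1% were found in endosperm and 15.3% against 60.8% in embryo. In that band SAM detection was near its ceiling and the gap was widest in embryo, while in the other bands it was widest in root. For 4 to 9 inflorescence reads, 42.5% of 214 members against 62.7% of 415 were found in root, 62.1% against 76.9% in SAM and 7.01% against 15.9% in embryo, the narrowest gap. These percentages describe the 2 sets and were not tested, because absence from leaf chose one of them and circRNAs are not replicates.

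**Figure D3:**
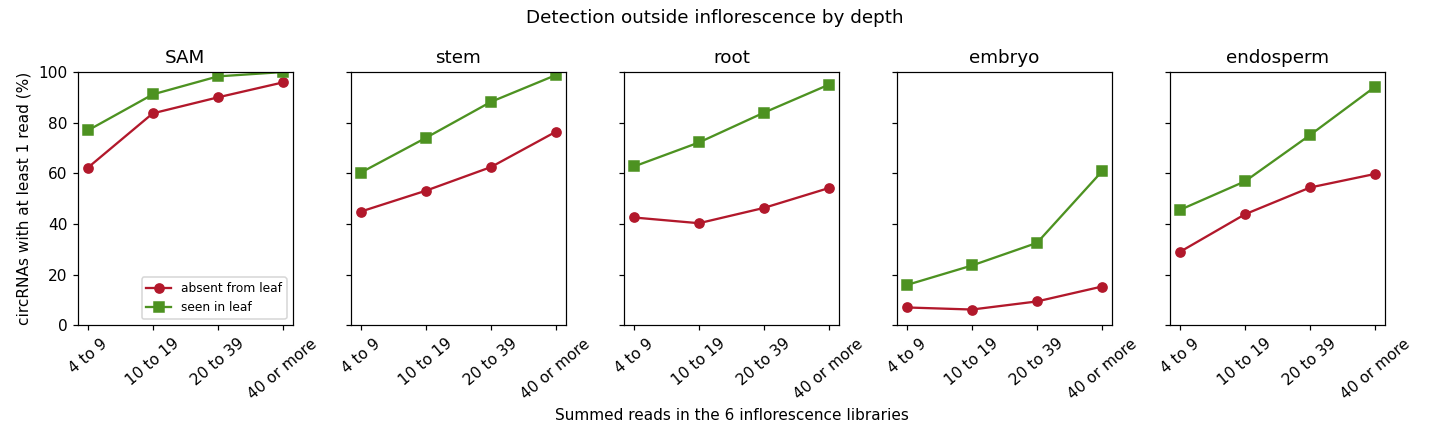
Percentage of circRNAs with at least 1 read in SAM, stem, root, embryo and endosperm (panels), by summed inflorescence reads (horizontal axis), for the 661 members (red circles) and the 3676 circRNAs also seen in leaf (green squares). The red line is below the green one at each point, and at 40 or more reads it reaches 95.8% in SAM and 54.2% in root.

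SAM was then compared with root and stem in a limma fit of the 7 libraries, none of which the rule used. The filter of at least 3 libraries above 0 was passed by 353 members and failed by 308, and by 6137 circRNAs in all. Of these, 6 members were called higher in SAM (1.70%), where 0.766% of all tested were. No member was called higher in root and stem, where 0.277% of all tested were. On the recovered reads edgeR and DESeq2 also called no member in that direction, against 51 and 18 of all tested. At an unadjusted p under 0.05 there were 82 members (23.2%) against 14% of all tested. The median log2 difference was 0.82 over the members tested and 0.08 over all tested, and 0.76 and 0.13 where neither side was at 0. Every SAM library was above every root and stem library for 72 members (20.4%, background 7.41%), and the reverse held for 1 (0.283%, background 2.02%). The filter shapes these counts, because a circRNA at 0 in root and stem enters the test through high SAM values alone, as 23 members (6.52%) and 121 of all tested (1.97%) did. In reverse, 5 members (1.42%) and 331 of all tested (5.39%) were at 0 in SAM and entered through root and stem alone. Where neither side was at 0, 2 of 325 members (0.615%) were called higher in SAM against 0.633% of all such circRNAs. There 0 members were called higher in root and stem against 0.141%. Among the same circRNAs, every SAM library was above every root and stem library for 49 members (15.1%) against 5.88%. The shares called there were near the background in both directions, and the counts over the members that passed support nothing about members as a whole.

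Of the 6 called members, 4 had no read in root or stem and passed the filter through SAM alone, so a difference was built into their entry. All 6 were also called when the filter was reduced to 1 library above 0. The 4 still entered through SAM alone there, so this gives no separate support for their calls. ZmCirc036640 showed the largest called difference among members. It had 13, 7 and 20 reads in SAM at V3, V1 and V4 and none in the internode, the stem or either root, so the groups did not overlap. Its SAM rate was 17.1 times the limit of 3 reads over the root and stem libraries together (log2 difference 4.15, SE 0.794, limma adjusted p = 0.00236). In inflorescence it had 13, 6 and 21 reads in the ears, 28 and 17 in the tassels and 32 in the Inflorescence library, and of the kernel libraries endosperm had 8 reads and embryo 0.

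ZmCirc018467 had 11, 6 and 22 reads in SAM at V3, V1 and V4 and none in root or stem. Its SAM rate was 16.6 times the same limit (log2 difference 4.05, SE 0.805, limma adjusted p = 0.00364). Unlike ZmCirc036640 it was seen in both embryo and endosperm, with 4 reads each. Its inflorescence reads were 5, 11 and 4 in the ears, 8 and 7 in the tassels and 10 in the Inflorescence library, and ears and tassels overlapped in signal.

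ZmCirc036253 had 19, 6 and 11 reads in SAM, a rate 15.4 times the limit (log2 difference 3.98, SE 0.812, limma adjusted p = 0.00454). It had no read in root, stem, embryo or endosperm. Among inflorescences it had 17, 1 and 12 reads in the ears, 19 and 8 in the tassels and 27 in the Inflorescence library, the 2mm Ear being lowest.

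ZmCirc050234 had 8, 7 and 13 reads in SAM, a rate 11.9 times the limit (log2 difference 3.73, SE 0.821, limma adjusted p = 0.0111), and likewise none in root, stem or kernel. It was one of 2 members whose signal in every SAM library exceeded that in every inflorescence library (0.303%), near the 0.231% of the 4337 circRNAs that met the inflorescence condition. Its inflorescence reads were 4 in the 5mm Ear, 4 and 2 in the 1cm and 2mm tassels, 4 in the Inflorescence library and 0 in the 1cm and 2mm ears. The other such member, ZmCirc009555, chosen after its values were seen, had 9, 6 and 8 SAM reads and 0 to 6 reads in each inflorescence library.

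ZmCirc056394 had 25, 5 and 14 reads in SAM and 4 in the internode, with 0 in the stem and both roots (log2 difference 3.48, SE 0.779, limma adjusted p = 0.0129). ZmCirc053516, the remaining called member and named after its values were seen, had 26, 4 and 17 reads in SAM and 4 in the stem (log2 difference 3.41, SE 0.788, limma adjusted p = 0.0177). These calls depended on settings and on single libraries. Of the 6, 3 were called by DESeq2, 1 with the pseudocount divided by 4 and none with a filter of at least 5 of all 26 libraries. Of the 6, none was called without Primary Root(6DAS), 1 without Primary Root(V1), 2 without Stem(V6) and 4 without Internode(V6). Without any one SAM library the 4 members at 0 in root and stem had too few libraries above 0 to be tested, and the remaining 2, ZmCirc056394 and ZmCirc053516, were called without SAM(V1) and not called without SAM (V3) or SAM(V4).

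**Figure D4:**
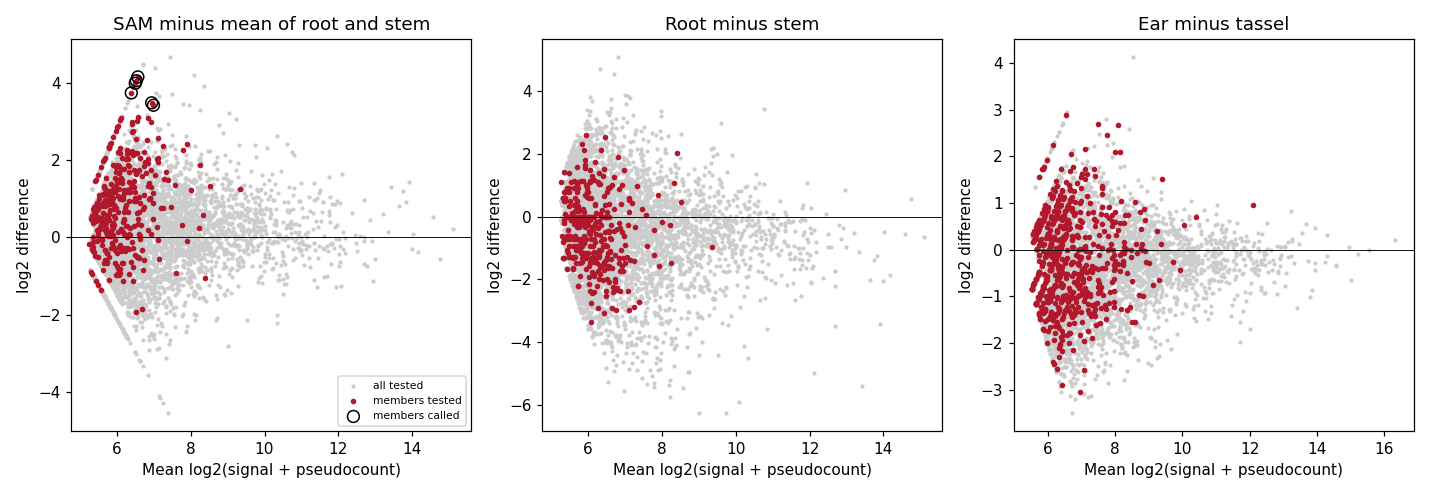
Log2 difference (vertical axis) against mean log2(signal + pseudocount) (horizontal axis) for SAM minus the mean of root and stem, root minus stem, and ear minus tassel. Grey points are all circRNAs tested, red points the members tested, and rings the 6 members called, all in the left panel at log2 differences from 3.41 to 4.15.

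The opposite pattern was rare. The single member whose root and stem libraries were all above all SAM libraries was ZmCirc035799, chosen after its values were seen, with 4 and 5 reads in internode and stem, 4 and 4 in the roots, and 0, 1 and 1 in SAM at V3, V1 and V4. ZmCirc060209, among the 3 highest members in stem, had 5 and 12 reads in internode and stem, 1 and 0 in the roots and 2, 0 and 1 in SAM. Its root minus stem difference of -3.07 did not pass (SE 1.11, limma adjusted p = 0.146).

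Between root and stem no member was called by limma, where 0.228% of all tested were called higher in root and 3.13% higher in stem. At an unadjusted p under 0.05 there were 26 members (7.37%) against 16.2% of all tested, and on the recovered reads edgeR called 1 member, ZmCirc020983, of 226 circRNAs called in all, and DESeq2 none of 72. The median log2 difference was -0.38 over the members and -0.35 over all tested, so relative to all circRNAs the members' median was -0.03. Both roots were above both stem libraries for 25 members (7.08%, background 12.2%) and the reverse held for 79 (22.4%, background 30%). The smallest adjusted p of a member was 0.0685, for ZmCirc011169, chosen after its values were seen, with 6 and 3 reads in internode and stem and none in the roots (log2 difference -2.87).

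In the kernel, each tissue is 1 library and no difference has a replicate check. ZmCirc035425 was the highest member there, with 57 reads in embryo and 39 in endosperm. It had 16, 11 and 21 reads in the ears, 8 and 33 in the tassels, 22 in the Inflorescence library, 3, 0 and 6 in SAM at V3, V1 and V4, 3 in the internode and none in the stem or roots. In signal, embryo (2844) and endosperm (1471) were both above its inflorescence mean of 696 ± 258 (SD, n = 6). Embryo exceeded every inflorescence library for 15 members (2.27%), against 4.91% of the 4337 circRNAs that met the inflorescence condition, and endosperm for 43 (6.51%) against 7.03%. The rule used the inflorescence values of this comparison, and nothing is read from it.

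ZmCirc036721 was seen in endosperm with 32 reads and not in embryo. It had 23, 4 and 9 reads in SAM at V3, V1 and V4, 4 in the stem and none in the internode or roots (log2 difference of SAM from root and stem 3.07, SE 0.809, limma adjusted p = 0.052). Its tassel reads, 22 and 15, compared with 5, 4 and 6 in the ears. Both tassels were above all ears in signal, and the difference did not pass (log2 difference of ear from tassel -1.55, SE 0.852, limma adjusted p = 0.999).

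There were 5 members with reads in all 15 non-leaf libraries. ZmCirc042644 had 17 reads in embryo and 15 in endosperm, 16, 17 and 14 in SAM, 5 and 4 in internode and stem and 9 and 8 in the roots, with 2 to 18 in the inflorescence libraries. ZmCirc019937 had 15 and 9 reads in the 6DAS and V1 roots and 10 in embryo, against 3 to 5 in each inflorescence library other than the 2mm Tassel, which had 16. Both had a higher mean signal in SAM than in inflorescence, as did 111 of the 661 members. The rule used the inflorescence values and the share over other circRNAs is not given here, so nothing is read from this count.

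ZmCirc037196 had 7 to 14 reads in each inflorescence library, 9 and 7 in internode and stem, 8 and 3 in the roots, 2 in embryo and 14 in endosperm, and its SAM reads of 6, 3 and 1 were low beside stem. ZmCirc005258 stood out in the 1cm Tassel, with 21 reads, and in endosperm, with 16, while the other non-leaf libraries had 2 to 8. ZmCirc046118 had 23 reads in the 2mm Tassel and 15 in SAM (V3), with 1 to 12 elsewhere. None of these 5 members passed in any of the comparisons above.

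At the other end, 47 members were read in no library other than the inflorescence libraries. ZmCirc046032 led them by mean signal with 7 and 9 reads in the 1cm and 5mm ears, 6 in the 1cm Tassel and 19 in the Inflorescence library, and 0 in both 2 mm organs. ZmCirc029984 had 4, 0 and 4 reads in the ears, 9 and 2 in the tassels and 19 in the Inflorescence library. ZmCirc032217 was the most even of these 3, with 4, 7 and 8 reads in the ears, 5 and 6 in the tassels and 2 in the Inflorescence library. Most of the 47 were sparse: 32 had 4 to 9 inflorescence reads, and 14.95% of the members in that band were read nowhere else, against 1.39% of those with 40 or more.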

How the data were processed

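The submitters' processing notes name HISAT, StringTie, Bowtie 1.1.2, RSEM, SAMtools 1.9, cutadapt 1.9.1 and the build B73 RefGen_v4; for the circRNA table, the caller and the total it was scaled to are not given in the sources used here. Deposited circRNA values carry the authors' label CPM, but in 25 of 26 libraries they sum to more than 1000000, so they are treated as a signal scaled by the authors in each library. Dividing by the smallest step of a library gave whole reads for 100% of values (tolerance 0.001). No other table of the series entered. Tests were run in limma 3.58.1, with its trend of variance on mean level, on log2(signal + 27.7), the smallest positive signal, over all circRNAs above 0 in at least 3 libraries of a comparison, with Benjamini-Hochberg adjustment over all tested. Fold changes on this scale understate those of low circRNAs. A call needed an adjusted p under 0.05 and a log2 fold change of at least 1. edgeR 4.0.16 (quasi-likelihood) and DESeq2 1.42.0 on recovered reads, other scalings, pseudocounts, filters and each library left out were alternatives. Expected members at equal depth are means of drawing reads without replacement. Intervals and limits cover counting error only. No 2 libraries held identical values.

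Members and lists were chosen with earlier results of these data known. Members named are the 6 highest over inflorescence, 4 over SAM, 3 each over root, stem and kernel, those in all 15 non-leaf libraries, up to 5 called per direction, the 3 highest seen in inflorescence alone, and 2 on each side of each threshold. The tissue marker lists were not looked up, because the table's identifiers carry no gene symbol; host genes, positions and sequences were not analysed here.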

Additional observations from a re-analysis of the deposited data

Results flagged for a closer look

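Of 28 sets of 6 inflorescence values examined (members detected, their share of reads, and named members), 5 had a library whose gap to its nearest neighbour was large against the set's range, past the 95% value of Dixon's test, which chance passes in about 5% of sets. The rule used these inflorescence values and most of the members were named for high ones, so nothing is read from the number of sets. The number of members detected was lowest in the 2mm Ear, at 307, the library with the fewest reads (41661). At the equal depth used above the 2mm Ear was still lowest. It had 229 expected members, against 253 to 322 in the other inflorescence libraries. Its expected number of all circRNAs at that depth was also lowest, at 3529 against 4431 to 4808. ZmCirc015606 was low in the 2mm Tassel, at 672 signal. ZmCirc018176 was high in the 1cm Ear, at 1905 signal. ZmCirc019937 was high in the 2mm Tassel, at 512 signal. ZmCirc005258 was high in the 1cm Tassel, at 875 signal. Beyond these equal-depth values for the 2mm Ear, the part of depth was not tested.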

How the results depend on the processing

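The number of members was 1537 with presence in at least 3 inflorescence libraries, 283 with 5, 117 with 6, and 380 where presence needed 2 reads; leaving out a library gave 354 to 741. With presence in 5 or in 6, members seen in SAM were 254 and 109, in root 138 and 60, in stem 187 and 81, in kernel 158 and 70, and in no outside library 7 and 2; the last was 126 where detection needed 2 reads. Leaving out outside libraries, chosen after seeing the data, gave 446 to 503 in SAM, 172 to 205 in root, 241 to 253 in stem, 54 to 285 in kernel (54 without endosperm) and 47 to 67 in none. Members called in SAM against root and stem, 6 above, were 16 in edgeR (4.53%, against 1.55% of all tested higher), 3 in DESeq2 (0.850% against 0.505%), 1 with the pseudocount divided by 4 (0.283% against 0.310%), 18 with it multiplied by 4 (5.10% against 1.47%), 18 without the filter (2.96% against 0.206%), 0 with a filter of at least 5 of all 26 libraries (0% against 0%), and 10 with all 15 non-leaf libraries fitted (2.83% against 0.733%). Without the filter the share of all tested was over 32065 circRNAs, against 6137 above. The circRNAs added were above 0 in only 1 or 2 of the 7 libraries, so that share is not on an equal footing with the others. With a library left out, members called were 0 to 5 (0% to 1.71%, against 0.149% to 1.45% of all tested). All calls split 47 higher to 17 lower, against 59 to 41 with quantile normalization, 31 to 18 in DESeq2 45 to 8 with 15 libraries, and 28 to 41 without SAM (V3), where more were lower than higher. Members called between root and stem, 0 above, were 1 in edgeR, 1 on RPM and 1 with quantile normalization, each higher in root. Each was 0.283% of members tested, against 0.782%, 0.554% and 0.864% of all tested called higher. With the filter over 26 libraries 10 were called. Of these, 3 were higher (0.483%, against 0.679% of all tested) and 7 lower (1.13%, against 1.75%). With a library left out 0 to 3 were called. The 3 were without SAM(V1), 1 higher (0.342%, against 0.592% of all tested) and 2 lower (0.685%, against 5.81%). The median of all circRNAs there moved from -0.35 to 0.10 on RPM, and all calls from 14 higher and 192 lower to 34 and 87, 53 and 115 with quantile normalization, and 48 and 178 in edgeR. The cause was not tested. No member was called between ear and tassel in any alternative run. The labels give no replicate numbers. With organ size as a block, added after seeing the data, limma called 0 members between ear and tassel. At an unadjusted limma p under 0.05 there were 33 of 661 members, against 383 of 5034 circRNAs tested. Sparse reads limit these data: 214 members had fewer than 10 inflorescence reads.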

Other observations

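Some members carried neighbouring identifier numbers. The basis of the numbering is not known here. There were 38 pairs of members with consecutive numbers, which took in 72 members (10.9%). Of the 1296 circRNAs next to a member in number, 5.56% were members, against 1.07% of all circRNAs. The same share for all circRNAs that met the inflorescence condition is not given here. The longest run held 4 members, ZmCirc036250 to ZmCirc036253. None of the 4 had a read in root, embryo or endosperm. ZmCirc036251 had 51 reads in the 1cm Tassel and 0 in the 2mm Tassel, and ZmCirc036250 had 4 to 8 reads in 5 inflorescence libraries and none elsewhere. These members were named after their values were seen, and the pattern was not tested.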
